A study of Homo sapiens with 6 samples.

Results

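The genes described are 10 members of the AP-1 group of transcription factors, chosen by gene name: FOS, FOSB, FOSL1, FOSL2, JUN, JUNB, JUND, BATF3, MAFF and MAFK. All 10 were found among the 58735 genes of the deposited table, and 9 of them had enough counts to be tested, as did 15294 genes in all. The data are polyadenylated RNA sequencing of KYSE410, a cultured human line of oesophageal squamous carcinoma origin. The 3 siADAR1 libraries came from cells with a knockdown of ADAR1, which edits adenosines of double-stranded RNA into inosines, and the 3 control libraries from cells labelled wild type. The titles name the controls NC, and all 6 libraries share 1 batch label and are labelled as having no treatment, so the labels do not say whether the controls received an siRNA of their own. Delivery of an siRNA, its off-target binding and the loss of ADAR1 therefore cannot be told apart, and no label says that the libraries of a group came from separate cultures, so the spread behind each p-value is that between these libraries and may be technical.

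AP-1 is a family of dimers held together by leucine zippers. JUN proteins can pair with themselves or with FOS proteins, whereas FOS proteins need a JUN partner, and the dimers bind short DNA sites in the control regions of genes for growth, stress responses and invasion. FOS, FOSB, JUN and JUNB are immediate early genes, switched on within minutes by mitogen-activated protein kinases without new protein synthesis, while FOSL1 and FOSL2 respond later and for longer. BATF3 and the small MAF proteins MAFF and MAFK are shorter relatives with no activation domain of their own. BATF3 pairs with JUN proteins, and the small MAFs pair with each other or with the cap'n'collar proteins such as NFE2L2 and BACH1.

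The stretches just upstream of the transcription start are shown for 5 members, since these are the genes that set the results below: FOS and FOSB were tested and did not pass, JUN and MAFF had the largest log2 fold changes among the members that passed, and JUNB had the highest FPKM level. The RefSeq promoter table (GRCh38.p14) held 7 of the 10 members, with 2 starts for MAFF, and 250 bases upstream of each start were searched. These RefSeq starts can differ from those of the genes counted. Of the stretches shown, those of JUN and MAFF lie inside the span of the counted gene, and that of FOS runs into it. The sequences cover chr14:75278578-75278827 on the plus strand for FOS, chr19:45467746-45467995 on the plus strand for FOSB, chr1:58784048-58784297 on the minus strand for JUN, chr19:12791236-12791485 on the plus strand for JUNB and chr22:38201744-38201993 on the plus strand for the first start of MAFF. Capitals mark matches, on either strand, to TGACG (the core of the cyclic AMP response element), to the full element TGACGTCA, to TGACATCA and TTACCTCA, which are known in the JUN promoter as sites for JUN-ATF2 dimers, and to TATAAA.
FOS: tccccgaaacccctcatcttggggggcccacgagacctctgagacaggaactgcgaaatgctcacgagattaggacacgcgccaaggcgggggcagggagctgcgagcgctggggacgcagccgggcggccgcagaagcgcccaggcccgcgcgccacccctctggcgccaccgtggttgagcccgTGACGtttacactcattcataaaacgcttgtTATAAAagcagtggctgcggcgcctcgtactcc
FOSB: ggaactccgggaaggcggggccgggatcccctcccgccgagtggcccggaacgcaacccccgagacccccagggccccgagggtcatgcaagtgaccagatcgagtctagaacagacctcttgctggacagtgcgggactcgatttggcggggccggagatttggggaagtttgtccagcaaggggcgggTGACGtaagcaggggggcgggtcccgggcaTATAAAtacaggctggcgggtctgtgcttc
JUN: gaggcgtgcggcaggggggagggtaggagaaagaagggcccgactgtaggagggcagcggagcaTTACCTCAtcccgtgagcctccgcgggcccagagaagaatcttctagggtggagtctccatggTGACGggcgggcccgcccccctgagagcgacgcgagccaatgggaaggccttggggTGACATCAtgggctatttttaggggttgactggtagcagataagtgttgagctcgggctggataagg
JUNB: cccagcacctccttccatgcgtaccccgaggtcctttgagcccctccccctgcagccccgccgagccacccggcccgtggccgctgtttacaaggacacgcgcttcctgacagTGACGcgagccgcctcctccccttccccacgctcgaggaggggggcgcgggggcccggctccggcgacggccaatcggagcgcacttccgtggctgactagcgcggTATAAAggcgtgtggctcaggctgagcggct
MAFF: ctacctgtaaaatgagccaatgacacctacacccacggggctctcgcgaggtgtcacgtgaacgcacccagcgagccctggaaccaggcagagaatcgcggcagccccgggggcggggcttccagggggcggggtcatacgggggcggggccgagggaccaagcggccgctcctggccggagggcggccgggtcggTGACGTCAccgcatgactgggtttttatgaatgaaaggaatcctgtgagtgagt
Each of the 7 matched members held TGACG in at least 1 of its stretches, though the second MAFF stretch did not. Counted per promoter and not per gene, 21.2% of 35116 promoters of the same length held it. TGACG also lies inside TGACGTCA. In FOS the match lay 64 to 60 bases upstream of the start and in FOSB 60 to 56 bases upstream. The full element TGACGTCA was found in JUND and in the first stretch of MAFF, against 1.65% of all promoters. JUN alone held TGACATCA, found in 2.37% of promoters, and TTACCTCA, found in 0.644%. A TATAAA match was present in FOS, FOSB and JUNB, against 10.7% of promoters. The AP-1 site TGANTCA (6.57% of promoters) and the CArG box bound by SRF (1.16%) had 0 matches among the members in this window, and the kappaB site (5.21%) matched only in the stretch of the second MAFF start, which is not shown. These matches describe letters in a window and show nothing about binding.

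Total counts ran from 15175619 to 16903792 in siADAR1 libraries and from 15497788 to 17329443 in control libraries. The knockdown target ADAR was at 92.8, 95.8 and 77.6 CPM (counts scaled to library size, with sizes adjusted by the trimmed mean of M-values) in siADAR1 libraries 1 to 3, against 455.6, 431.5 and 443.5 CPM in control libraries 1 to 3 (log2 fold change -2.32 ± 0.09, SE, edgeR adjusted p = 1.06e-08). The siADAR1 and control libraries numbered 1 lay away from the rest of their groups in a principal component plot. On its second component they were at 14.96 and 36.07, and every other library was negative. The 8 squamous markers summed to 738.7 to 808.9 CPM in siADAR1 and 663.6 to 735.0 CPM in control libraries. Of the 7 that were tested 3 were higher, 3 were lower and 1 did not pass, where 26.0% of all tested genes were called higher and 25.0% lower. KRT6A was at 4.23, 7.83 and 4.77 CPM in siADAR1 libraries, against 29.5, 24.2 and 25.4 CPM in control libraries (log2 fold change -2.24 ± 0.20, SE, edgeR adjusted p = 2.60e-06), and KRT5 and SFN were also lower. Among the markers called higher, KRT17 averaged 372.2 ± 50.5 CPM in siADAR1 and 292.2 ± 12.7 CPM in control libraries (SD, n = 3 each). TP63, also higher, averaged 174.0 ± 16.5 CPM in siADAR1 and 124.5 ± 12.7 CPM in control libraries (SD, n = 3 each). KRT14 had 3 and 1 counts in all. The 6 leukocyte markers summed to 0.255 to 0.451 CPM in siADAR1 and 0.460 to 0.808 CPM in control libraries, with PTPRC at 1 count per group and CD3E at 0. The 6 fibroblast markers summed to 72.3 to 85.0 CPM in siADAR1 and 40.1 to 59.4 CPM in control libraries, nearly all from LUM and COL1A1, with DCN at 0 in every library. The 5 endothelial markers summed to 0.677 to 1.53 CPM in siADAR1 and 1.05 to 2.15 CPM in control libraries, with KDR at 0. Their part in the results was not tested.

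Of the 9 tested AP-1 genes, 7 were higher in siADAR1, 0 were lower and 2, FOS and FOSB, did not pass. The call was an adjusted p below 0.05 in edgeR's quasi-likelihood test, adjusted over all 15294 tested genes, and 26.0% of those genes were called higher by the same rule, 25.0% lower and 51.0% in either direction. The same 7 genes did not overlap between groups, with siADAR1 above control, as did 30.7% of all tested genes, and 0 members lay wholly below control, as 29.7% of genes did. The median log2 fold change of the 9 was 0.74, beside 0.0047 for all tested genes. In bulk RNA a change in the number of cells expressing a gene and a change in RNA per cell cannot be told apart. Without both libraries numbered 1 the count stayed at 7 higher and 0 lower. Without both libraries numbered 3 it was 8 higher, with FOS and FOSB gained and JUND lost. That exclusion was chosen after the values were seen.

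**Figure D1:**
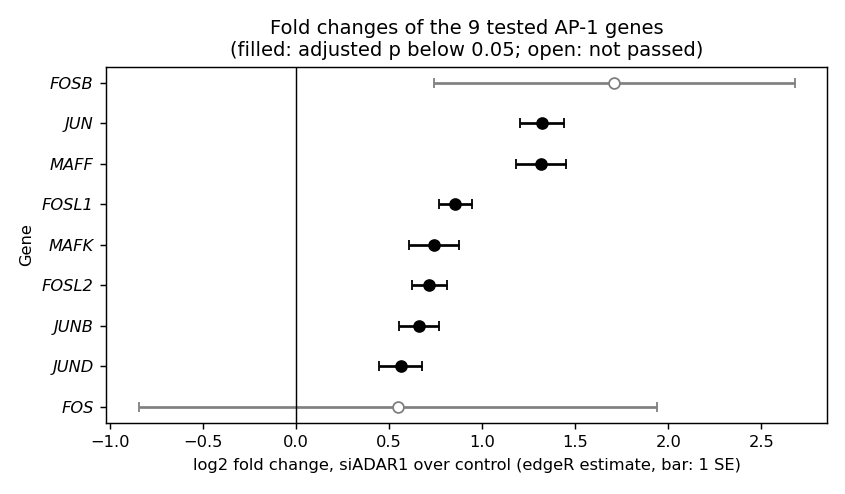
Log2 fold change of siADAR1 over control for the 9 tested AP-1 genes (x axis, edgeR estimate, bars 1 SE), with filled points for genes past an adjusted p of 0.05 and open points for the rest. The 7 filled points lie between 0.56 (JUND) and 1.32 (JUN and MAFF) with short bars, while FOS and FOSB have the widest bars.

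Among the JUN genes, the largest rise was in JUN itself (ENSG00000177606, GRCh38 chromosome 1, 58780788 to 58784327, minus strand), the intronless founding member of the family. JUN was at 332.3, 452.4 and 473.3 CPM in siADAR1 libraries 1 to 3, against 172.0, 161.8 and 169.8 CPM in control libraries 1 to 3. The groups did not overlap, the lowest siADAR1 value being that of library 1, and the control libraries lay close together. The mean was 419.3 ± 76.1 CPM in siADAR1 and 167.9 ± 5.36 CPM in control (SD, n = 3 each), a log2 fold change of 1.32 ± 0.12 (SE, edgeR adjusted p = 2.06e-06).

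JUNB (ENSG00000171223, chromosome 19, 12791496 to 12793315), a JUN relative that is a weaker activator and can oppose JUN, was at 411.6, 482.0 and 487.5 CPM in siADAR1 libraries, against 246.2, 315.7 and 312.0 CPM in control libraries. Library 1 was the lowest in each group, and every siADAR1 value lay above every control value. Its log2 fold change was 0.66 ± 0.11 (SE, adjusted p = 1.97e-04 in edgeR). HOOK2, on the other strand, shares 259 of the 1820 exonic bases of JUNB in GENCODE 29, and the labels name no step that marks the strand, so reads in that stretch cannot be assigned to one gene. HOOK2 itself had 4660 counts in siADAR1 and 2621 in control libraries.

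JUND (ENSG00000130522, chromosome 19, 18279760 to 18281622, minus strand), the member that most tissues express without stimulation, had the smallest rise of the 3 JUN genes. It was at 48.8, 52.0 and 64.2 CPM in siADAR1 libraries, against 36.4, 39.6 and 35.9 CPM in control libraries. The groups did not overlap, and siADAR1 library 3 was the highest. The log2 fold change was 0.56 ± 0.12 (SE, edgeR adjusted p = 1.51e-03), and without both libraries numbered 3 it was 0.41 with an adjusted p of 0.0503 in edgeR.

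FOSL1 and FOSL2 encode FRA-1 and FRA-2, FOS relatives that lack the strong activation domain of FOS and are long-lived components of AP-1 in squamous and other carcinoma cells. FOSL1 (ENSG00000175592, chromosome 11, 65892049 to 65900573, minus strand) was at 252.2, 214.1 and 219.8 CPM in siADAR1 libraries, against 130.7, 125.0 and 123.4 CPM in control libraries. Its log2 fold change was 0.86 ± 0.09 (SE, edgeR adjusted p = 6.27e-06), with library 1 the highest in each group. FOSL2 (ENSG00000075426, chromosome 2, 28392448 to 28417312) was at 500.8, 424.3 and 400.7 CPM in siADAR1 libraries, against 282.8, 259.4 and 264.9 CPM in control libraries. FOSL2 also had its highest value of each group in library 1, and its log2 fold change was 0.72 ± 0.09 (SE, edgeR adjusted p = 3.78e-05). The groups did not overlap for either gene, and the processed pseudogene FOSL1P1, which could take reads of FOSL1, had 1 count in siADAR1 and 5 in control libraries.

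FOS and FOSB, the 2 tested members that did not pass, had a wide spread inside each group. FOS (ENSG00000170345, chromosome 14, 75278774 to 75282230), the partner of JUN in the classical AP-1 dimer, was at 10.9, 19.8 and 83.2 CPM in siADAR1 libraries 1 to 3, against 6.65, 5.45 and 65.7 CPM in control libraries 1 to 3. Library 3 was the high one in both groups, and the groups overlapped. The highest library was 7.64 times the lowest in siADAR1 and 12.05 times in control. In edgeR FOS gave 0.55 ± 1.39 on the log2 scale (SE, siADAR1 over control, adjusted p = 0.778). A p that misses the threshold does not show that the groups had the same level, and the value was -0.75 without siADAR1 library 3 and 2.63 without control library 3 (edgeR adjusted p = 0.736 and 0.192).

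FOSB (ENSG00000125740, chromosome 19, 45467995 to 45475179), an immediate early gene that is usually silent in resting cells, was at 26.3, 33.2 and 74.2 CPM in siADAR1 libraries, against 4.29, 5.65 and 31.0 CPM in control libraries. Library 3 was again the high one in each group, and control library 3 lay above siADAR1 library 1. In edgeR FOSB gave 1.71 ± 0.97 on the log2 scale (SE, siADAR1 over control, adjusted p = 0.218). Without control library 3 it was 3.15 with an adjusted p of 9.54e-03, and limma-voom gave 2.14 with an adjusted p of 8.13e-03. ERCC1 overlaps the FOSB locus on the other strand but shares 0 exonic bases with it.

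Libraries of the same number were set side by side after these values were seen. For FOS, siADAR1 was 1.64-fold the control in the libraries numbered 1, 3.63-fold in those numbered 2 and 1.27-fold in those numbered 3. For FOSB, siADAR1 was 6.13-fold, 5.88-fold and 2.39-fold the control. Both genes were thus above control at each number. Without both libraries numbered 3 the log2 fold change was 1.34 ± 0.29 (SE) for FOS and 2.58 ± 0.23 for FOSB, with edgeR adjusted p of 2.28e-03 and 2.21e-06. These libraries were left out after the values were seen and held most of the spread of both genes. The smaller SE and p therefore cannot serve as a test of a rise. Among the 12764 tested genes averaging 2 CPM or more, FOS was the only 1 whose library 3 lay at least 3-fold above both others in both groups. There were 3 such genes in siADAR1 alone and 5 in control alone. This rule was set after the FOS values were seen, so FOS was bound to meet it. FOSB missed it in siADAR1, with 74.2 CPM in library 3 against 33.2 CPM in library 2. What sets library 3 apart for FOS was not tested, and the labels name no difference between libraries of a group.

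**Figure D2:**
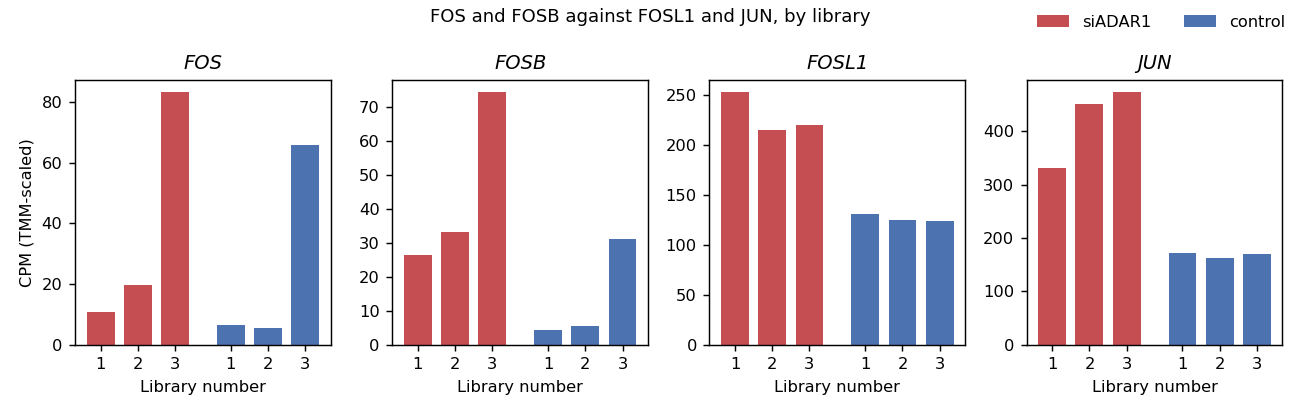
CPM of FOS, FOSB, FOSL1 and JUN (y axis, 1 panel per gene, each with its own scale) in siADAR1 libraries 1 to 3 and control libraries 1 to 3, 1 bar per library. FOS reaches 83.2 and 65.7 CPM in library 3 of the groups against at most 19.8 CPM in any other library, whereas FOSL1 and JUN separate by group.

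MAFF (ENSG00000185022, chromosome 22, 38200767 to 38216511), a small MAF protein inducible by stress and cytokines, was at 151.4, 120.7 and 116.5 CPM in siADAR1 libraries, against 42.3, 54.9 and 58.9 CPM in control libraries. The lowest siADAR1 value was well above the highest control value. Library 1 was the highest of its group in siADAR1 and the lowest in control. The log2 fold change was 1.32 ± 0.13 (SE, edgeR adjusted p = 6.56e-06), equal to that of JUN at this precision.

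MAFK (ENSG00000198517, chromosome 7, 1530714 to 1543043), the more constantly expressed small MAF, was at 200.1, 135.5 and 139.3 CPM in siADAR1 libraries, against 99.8, 90.9 and 93.7 CPM in control libraries. The groups did not overlap, and siADAR1 library 1 was the highest. The log2 fold change was 0.74 ± 0.13 (SE, edgeR adjusted p = 5.96e-04). TMEM184A, on the other strand, shares 809 of the 4458 exonic bases of MAFK and had 10809 counts in siADAR1 and 7288 in control libraries, more than MAFK itself with 7869 and 4428.

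BATF3 (ENSG00000123685, chromosome 1, 212686418 to 212699985, minus strand), known for its need in cross-presenting dendritic cells, was close to the limit of detection. It had 14, 3 and 7 counts in siADAR1 libraries, against 1, 2 and 5 in control libraries. The groups overlapped and 3 of the 6 libraries were at or below a floor of 3 counts, so no fold change is given and the gene was not tested. With no filter on low counts its adjusted p was 0.280 in edgeR.

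Levels of different genes were compared as deposited FPKM (fragments scaled to gene length and library depth). The order of the group means was the same in siADAR1 and in control libraries: JUNB, FOSL1, JUN, FOSL2, MAFK, JUND, MAFF, FOS, FOSB and BATF3. JUNB averaged 249.8 ± 22.8 FPKM in siADAR1 and 158.5 ± 21.5 FPKM in control libraries (SD, n = 3 each). FOSL1, the next in order, averaged 119.7 ± 10.8 FPKM in siADAR1 and 66.3 ± 1.93 FPKM in control. In siADAR1 the libraries of FOSL1 overlapped those of JUN, at 117.0 ± 21.1 FPKM, while in control JUN lay lower, at 46.9 ± 1.46 FPKM. FOSB averaged 7.92 ± 4.58 FPKM in siADAR1 and 2.44 ± 2.69 FPKM in control, and FOS overlapped both MAFF and FOSB in each group. MAFK and JUND also overlapped in both groups, and JUND and MAFF overlapped in siADAR1.

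**Figure D3:**
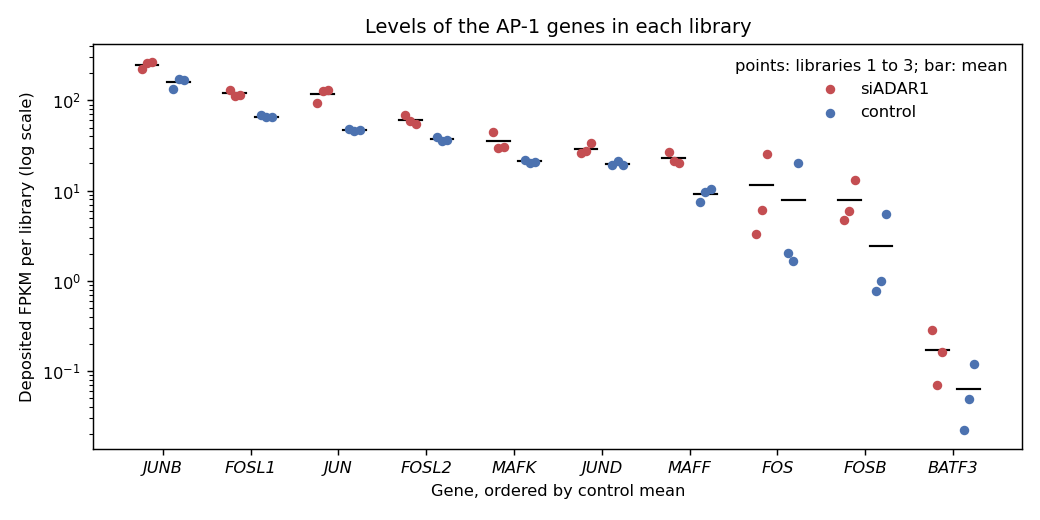
Deposited FPKM (y axis, log scale) of the 10 AP-1 genes in each library, with siADAR1 left of control for each gene, points for libraries 1 to 3 and a bar for the mean. JUNB is highest in both groups and BATF3 lowest, and FOS and FOSB spread over more of the axis than FOSL1, FOSL2 or JUND.

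Shares within a family do not depend on how libraries are scaled to each other. JUN made up 27.1, 30.4 and 30.7% of the summed FPKM of JUN, JUNB and JUND in siADAR1 libraries, against 23.9, 19.0 and 20.1% in control libraries. The share of JUNB was 65.3, 63.0 and 61.4% in siADAR1, against 66.5, 72.2 and 71.8% in control, and that of JUND was 7.57, 6.63 and 7.90% against 9.60, 8.84 and 8.07%. JUN was thus above and JUNB and JUND below control in every library. The two-sided exact permutation p was 0.10 for each of these 3 shares, the smallest that 3 against 3 libraries allow, and 0.267 after adjustment over the 8 ratios compared.

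FOSL1 made up 63.1, 61.4 and 55.1% of the FOS-family FPKM in siADAR1, against 62.1, 63.0 and 51.0% in control, with library 3 the lowest of each group. FOS made up 1.59, 3.31 and 12.1% in siADAR1, against 1.84, 1.60 and 15.8% in control. None of the 4 FOS-family shares separated the groups (two-sided exact permutation p of 0.30 to 0.80). The summed FOS family was 209.3, 182.8 and 208.4 FPKM in siADAR1 and 110.3, 104.3 and 127.1 FPKM in control. The JUN family summed to 342.2, 415.8 and 429.5 FPKM in siADAR1 and 201.1, 238.2 and 236.4 FPKM in control. The ratio of the FOS-family sum to the JUN-family sum averaged 0.512 ± 0.089 in siADAR1 and 0.508 ± 0.061 in control (SD, n = 3 each), with a two-sided exact permutation p of 0.90.

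**Figure D4:**
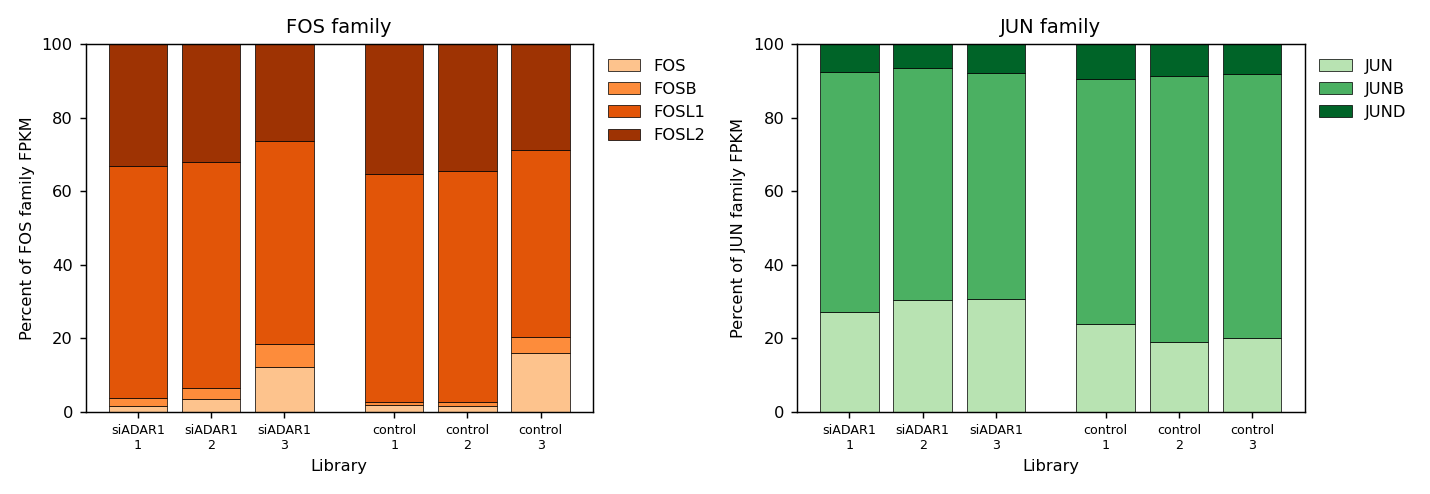
Share of each gene in the summed FPKM of the FOS family (left) and the JUN family (right), as percent on the y axis, in siADAR1 libraries 1 to 3 and control libraries 1 to 3. JUN takes at least 27.1% of its family in siADAR1 and at most 23.9% in control libraries, while FOS takes 12.1 and 15.8% of its family in library 3 of the groups and at most 3.31% elsewhere.

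The genes most like FOS and JUN were taken as those with the smallest root mean square difference of centred log2 CPM over the 6 libraries, among 11603 other protein-coding genes of at least 2 CPM. For FOS the nearest was FOSB, at 0.771, followed by MAGEA2B at 0.982 and CTGF at 0.996. CTGF, a secreted matrix protein gene, was at 24.0, 96.4 and 140.3 CPM in siADAR1 libraries, against 12.8, 52.7 and 77.5 CPM in control libraries, so it was low in library 1 of each group where FOS was high in library 3 alone. MAGEA2B may share reads with near-identical family members and is uncertain. For JUN the nearest were MTSS1L at 0.116, ZNF182 at 0.131 and ZNF233 at 0.133. MTSS1L was at 42.9, 50.8 and 49.5 CPM in siADAR1 libraries, against 22.0, 19.8 and 21.3 CPM in control libraries. The distances for JUN were far smaller than those for FOS. Such a distance grows with the spread of the gene itself, so those of FOS and JUN cannot be compared for closeness.

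Other basic leucine zipper genes that can join AP-1 dimers also rose. Of 11 such genes 8 were tested, and 7 rose, 0 fell and 1 (BATF2) did not pass. The share called higher was 87.5%, beside 26.0% of all tested genes, of which 25.0% were called lower. Their median log2 fold change was 1.04. ATF3, a stress-induced partner of JUN proteins, was at 526.0, 322.6 and 306.3 CPM in siADAR1 libraries, against 27.7, 22.8 and 26.3 CPM in control libraries, and rose by 3.91 ± 0.23 (log2, SE, edgeR adjusted p = 7.07e-06). JDP2, a repressor that pairs with JUN, rose by 1.32 ± 0.15, and BATF, the relative of BATF3, by 1.97 ± 0.29 (edgeR adjusted p = 1.25e-05 and 1.20e-04). MAFG, the third small MAF, rose by 0.57 ± 0.19 (log2, SE, edgeR adjusted p = 0.0313), although its groups overlapped, at 147.1, 106.1 and 98.1 CPM in siADAR1 libraries, against 99.6, 67.0 and 70.6 CPM in control libraries. Among 5 tested cap'n'collar partners of the small MAFs, 4 rose and 1 (NFE2L3) did not pass, with a median of 0.64. Their share called higher was 80%, beside the same 26.0% of all tested genes. NFE2L3 went the other way, at 81.55, 88.49 and 98.85 CPM in siADAR1 libraries, against 105.3, 107.1 and 103.5 CPM in control libraries. Its log2 fold change was -0.23 ± 0.09 (SE, edgeR adjusted p = 0.0513), and its groups did not overlap. NFE2L2, the antioxidant regulator NRF2, was at 271.5, 228.5 and 249.4 CPM in siADAR1 libraries, against 115.2, 138.8 and 145.9 CPM in control libraries. NFE2L2 rose by 0.91 ± 0.10 and the repressor genes BACH2 and BACH1, which compete with it for small MAFs, by 1.38 ± 0.16 and 0.64 ± 0.16 (log2, SE, edgeR adjusted p = 1.34e-05 for NFE2L2, 1.38e-05 for BACH2 and 6.70e-03 for BACH1).

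The kinases and factors that act on the FOS and JUN genes and proteins went both ways. All 23 were tested, and 6 rose, 9 missed the threshold and 8 fell. Their median log2 fold change of -0.05 was 0.07 with library totals alone. Their share called higher, 26.1%, lay next to the 26.0% of all genes. The 8 of 23 called lower stood beside 25.0% of all tested genes. MRTFA, a cofactor of SRF, rose by 0.81 ± 0.09 (SE, edgeR adjusted p = 7.41e-06) and the p38 activator MAP2K3 by 0.72 ± 0.11. MAPK7, which encodes ERK5, fell by 1.01 on the log2 scale, to 12.9, 13.6 and 12.7 CPM in siADAR1 libraries, against 30.6, 23.1 and 25.0 CPM in control libraries. MAPK8, which encodes the JUN kinase JNK1, was at 41.4 CPM in siADAR1 and 40.0 CPM in control on average (log2 fold change 0.05 ± 0.11, SE, edgeR adjusted p = 0.729), while MAPK9, which encodes JNK2, had a log2 fold change of -0.59 ± 0.10. MAPK10, which encodes JNK3, was at 7.3, 6.5 and 6.7 CPM in siADAR1 libraries, against 3.2, 3.7 and 6.0 CPM in control libraries. Its log2 fold change was 0.67 ± 0.24 (SE, edgeR adjusted p = 0.0319). MAPK8, MAPK9 and MAPK10 were chosen after their values were seen.

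Of the genes for the turnover of AP-1 mRNAs and proteins all 11 were tested: 4 rose, 4 missed the threshold and 3 fell. The share called higher was 36.4%, beside 26.0% of all tested genes, of which 25.0% were called lower. Their median log2 fold change of -0.0096 was 0.11 with library totals alone. ZFP36 and ZFP36L1, which encode proteins that destabilise mRNAs with AU-rich elements such as that of FOS, rose by 1.25 ± 0.15 and 1.34 ± 0.09 (SE, edgeR adjusted p = 2.80e-05 and 3.91e-07). ELAVL1, which encodes the stabilising protein HuR, was at 87.8, 112.3 and 109.3 CPM in siADAR1 libraries, against 186.3, 197.9 and 178.6 CPM in control libraries, with a log2 fold change of -0.86 ± 0.10 (SE, edgeR adjusted p = 1.82e-05).

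Of 19 genes known as AP-1 targets 15 were tested, and 6 rose, 6 fell and 3 did not pass. Of all tested genes 26.0% were called higher and 25.0% lower. Their median log2 fold change of -0.15 was -0.04 with library totals alone and 0.04 with no filter on low counts. The urokinase gene PLAU was at 183.8, 155.9 and 155.8 CPM in siADAR1 libraries, against 56.4, 42.9 and 41.6 CPM in control libraries, and rose by 1.81 ± 0.12 (SE, edgeR adjusted p = 3.01e-07). CCND1, which encodes cyclin D1, was at 328.4, 377.0 and 343.6 CPM in siADAR1 libraries, against 1345, 1250 and 1309 CPM in control libraries, with a log2 fold change of -1.90 ± 0.08 (SE, edgeR adjusted p = 1.47e-08). MMP1, the collagenase gene with a classical AP-1 site, was chosen after its values were seen. It was at 2.4, 4.4 and 3.0 CPM in siADAR1 libraries, against 23.6, 9.4 and 8.4 CPM in control libraries. Control library 1 thus lay far above the other controls. The log2 fold change of MMP1 was -2.09 ± 0.45 (SE, edgeR adjusted p = 5.91e-03). MMP10 and MMP13, chosen in the same way, did not pass (edgeR adjusted p = 0.802 and 0.456). Many of these genes have other regulators too, and RNA counts do not measure AP-1 binding or activity.

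**Figure D5:**
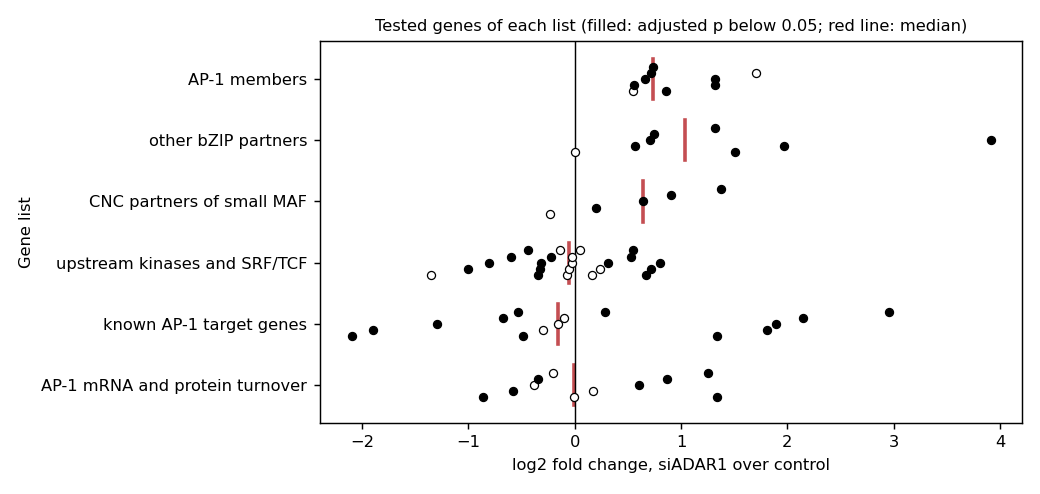
Log2 fold change of siADAR1 over control (x axis) for the tested genes of each list (y axis), 1 point per gene, filled where the adjusted p was below 0.05, with a red line at the list median. The AP-1 members, their other leucine zipper partners and the cap'n'collar partners (CNC) lie mostly right of 0, with medians of 0.74, 1.04 and 0.64, whereas the upstream, target and turnover lists lie on both sides, their medians near 0 changing sign with the scaling or filter used.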

How the data were processed

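Polyadenylated RNA of 3 siADAR1 and 3 control samples of KYSE410 cells was sequenced, and CASAVA, fastp and HISAT2 2.0.5 are named, with no role or order, in the submitters' processing notes. How reads were counted, and on which build, is not given in the sources used here. The coordinates of all 58735 genes equalled those of GENCODE 29 on GRCh38. The deposited counts are whole reads per gene without normalization, per the file headers and values. The deposited FPKM values carry a library factor of the authors, since the depth they imply was 1.05 to 1.06 times the count total in siADAR1 and 0.966 to 0.970 in control libraries. The 0 value columns without a sample needed no removal. Table columns were matched to samples by group and number in the titles.

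Counts were tested in R 4.3.3 with edgeR 4.0.16 (filterByExpr with a minimum count of 10, trimmed mean of M-values factors of 1.04 to 1.05 in siADAR1 and 0.957 to 0.963 in control, robust quasi-likelihood F test, group as the single term, two-sided, Benjamini-Hochberg over 15294 genes, threshold 0.05). The SE is the log2 fold change divided by the square root of F. A library floor of 3 counts equals 0.173 to 0.198 CPM on unscaled totals and covers counting error only. No 2 libraries of a group agreed within counting error (chi-square divided by its degrees of freedom, 3.95 to 18.0). The test was also tested on simulated data. Promoter sequences are from RefSeq.

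The members, lists and tests were chosen with earlier results of these data known. Named genes outside the members were ADAR, up to 3 tested genes per list with the smallest p, and the 3 genes most like FOS and JUN, except where stated. MAFG, genes that overlap a member, genes given as the single one of a list that did not pass, and the individual markers other than those with the smallest p were chosen after their values were seen. A gene that this rule names is not reported here. Alternatives were relative log expression factors, library totals alone, DESeq2 1.42.0, limma-voom (limma 3.58.1), other filters, a replicate block, libraries left out, and limma-trend on deposited FPKM with a pseudocount of 0.1 or 1. Leaving out both libraries numbered 3 was chosen after seeing the data.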

Additional observations from a re-analysis of the deposited data

How the results depend on the processing

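In all 18 alternative settings JUN, JUNB, FOSL1, FOSL2, MAFF and MAFK were higher in siADAR1 and passed, and the number of AP-1 genes higher was 7 to 9 with 0 lower. FOS depended on the libraries numbered 3: its log2 fold change ran from -0.75 to 2.63 with 1 library left out and was 1.34 without both libraries numbered 3, when that of JUND was 0.41 and no longer passed. FOSB ran from 1.13 to 3.15 with 1 library left out, and passed at 2.14 with limma-voom. It also passed at 2.58 without both libraries numbered 3, an exclusion chosen after the values were seen. The causes were not tested.

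Same-numbered libraries deviated together with correlations of 0.25, 0.08 and 0.11. The numbers were not taken as pairs in the main test because the labels name no batch that differs. These correlations do not exclude a structure shared by number. Each siADAR1 library correlated best with the control of its own number, while control library 2 correlated slightly better with siADAR1 library 3 (0.0917) than with siADAR1 library 2 (0.0844). With a replicate block, FOS (0.85, adjusted p = 0.0432) and FOSB (2.01, adjusted p = 1.83e-03) passed as well in edgeR, for 9 members higher, 1 cap'n'collar partner was lower, and 4396 genes were higher and 4186 lower overall. Library totals alone moved the median of all genes by 0.12 and the calls to 4892 higher and 2887 lower, against 3973 and 3831.

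Medians and small counts of the other lists moved too. The number of leucine zipper partners higher was 5 to 7 over all settings, and 5 without siADAR1 library 1, control library 2 or control library 3. With library totals alone the cap'n'collar median was 0.76, the upstream median 0.065 with 5 lower, and the target median -0.037. With no filter the medians were 0.75 for leucine zipper partners, 0.42 for cap'n'collar partners and 0.038 for targets. The leucine zipper median was 1.33 with a mean of at least 1 CPM, 0.65 on FPKM with a pseudocount of 1 and 0.52 on FPKM without a filter. On FPKM without a filter 2 cap'n'collar partners were higher (median 0.39), BACH1 no longer passed (adjusted p = 0.0675, limma), 3 upstream genes were higher and 5 lower, and the target median was -0.023 (-0.12 with the filter). There was 1 lower cap'n'collar partner with relative log expression factors, limma-voom, FPKM with either pseudocount under the filter, and without both libraries numbered 1. Without both libraries numbered 1 the cap'n'collar median was 0.40 and the turnover median 0.16, and without both numbered 3 the cap'n'collar median was 0.85 and 5 upstream genes were lower. With 1 library left out the cap'n'collar median ran from 0.44 to 0.82 with 0 to 1 lower, the turnover median from -0.11 to 0.16 and the target median from -0.27 to -0.13. BATF3 had too few counts to pass the filter and was tested only without one.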
